A study of Mus musculus with 12 samples.

Results

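The hormones of the islet cells other than β-cells were followed in 5 genes taken by symbol from the 52962 genes of the count table. These were Gcg (glucagon, α-cells), Sst (somatostatin, δ-cells), Ppy (pancreatic polypeptide, PP cells), Pyy (peptide YY) and Ghrl (ghrelin, ε-cells). Total RNA was sequenced from islet cells of female NOD mice, the non-obese diabetic strain in which immune cells invade the islets before diabetes appears. Cells were sorted by their autofluorescence into a β-cell and a non-β-cell fraction, at 4 weeks and at 8 weeks of age, which gave 4 groups of 3 samples and 12 samples in all. Per the study's methods, cells with surface CD45, a leukocyte protein, were removed in the sort and each replicate pooled several mice, a detail absent from the labels. All 4 groups were untreated and carried the NOD genotype, so a change with age has no non-diabetic strain beside it here.

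Each islet endocrine cell type is known for its own peptide hormone. Glucagon raises blood glucose, somatostatin acts on neighbouring cells to restrain insulin and glucagon release, and pancreatic polypeptide slows pancreatic secretion and gut emptying. Peptide YY is a close relative of pancreatic polypeptide that mouse islets make in α-, δ- and PP cells, and ghrelin, an appetite hormone made mainly in the stomach, marks the rare ε-cells. The sort was made to part β-cells from all of these. The genes were read across all 12 samples.

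In the mouse genome build GRCm38, all 5 genes lie on the minus strand. Gcg (ENSMUSG00000000394) spans bases 62474530 to 62483650 of chromosome 2, and Sst (ENSMUSG00000004366) bases 23889573 to 23890958 of chromosome 16. Ppy (ENSMUSG00000017316; 102099930 to 102101319) and Pyy (ENSMUSG00000017311; 102106676 to 102107832) are neighbours on chromosome 11, separated by 5356 bp. Ghrl (ENSMUSG00000064177) lies on chromosome 6 from 113716119 to 113719880, where the annotation has 2 other genes on the opposite strand, Gm44033 inside its span and Gm26982 at the very edge of it (113714971 to 113716121), so its reads are separated from theirs only as far as the strand was used in counting. No other annotated gene overlaps the other 4.

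The bases just ahead of each RefSeq transcript start (GRCm38.p6) are shown for the 4 genes with RNA in every sample. Each is read 5′ to 3′ on the gene's own strand, with an exact match to a searched motif in capitals. The searched motifs were the TATA box core (TATAAA) and the cAMP response element (TGACGTCA), on both strands of the 120 bases before the start, and no matches of the 2 motifs overlapped.
Gcg, chr2:62483654-62483713: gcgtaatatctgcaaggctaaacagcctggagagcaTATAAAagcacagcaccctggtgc
Sst, chr16:23890875-23890904: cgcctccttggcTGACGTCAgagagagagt
Ppy, chr11:102101320-102101379: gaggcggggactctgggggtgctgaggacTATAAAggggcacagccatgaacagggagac
Pyy, chr11:102107833-102107892: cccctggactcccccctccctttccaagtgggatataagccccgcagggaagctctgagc
The Gcg, Ppy and Pyy stretches are the 60 bases before the start, and the Sst stretch runs from 60 to 31 bases before it. For Sst the RefSeq start, base 23890844, lies inside the gene span given above, so its stretch falls within that span. TATAAA began 24 bases before the Gcg start and 31 bases before the Ppy start. Gcg held a further match on the opposite strand, from 72 to 67 bases before the start and so outside the stretch shown. TGACGTCA began 48 bases before the Sst start. Of 27025 RefSeq promoters, 6.76% held TATAAA and 1.31% held TGACGTCA in a window of the same length, and these letters were not in the Pyy window. A match is a description of the sequence and not a measured site, and its relation to the RNA levels was not tested.

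The samples held between 13755106 and 27040652 estimated counts. Both 4-week samples numbered 3 had the highest Gcg, Sst, Ppy and Pyy of their groups. Calls that they change are given without 1 or both of them, and percentages without the β-cell one. The sorted fractions bore out their labels: Ins2 (insulin) was 24955 to 67345 CPM in the β-cell samples but 409 to 1687 CPM in the other fraction. CPM here is the count as a share of a library's total, after scaling by the trimmed mean of M-values. Gcg, Sst, Ppy and Pyy passed the filter of more than 1 CPM in at least 3 samples, and Ghrl did not.

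Gcg fell with age in the β-cell fraction and not detectably in the non-β-cells, where it was the most abundant hormone RNA per length. In 4-week β-cells it was 5402, 6271 and 9039 CPM in replicates 1, 2 and 3, and in 8-week β-cells 2443, 1413 and 2113 CPM. The non-β-cells held 102911, 105933 and 116865 CPM at 4 weeks and 110925, 125124 and 132644 CPM at 8 weeks. Every 8-week β-cell sample lay under every 4-week β-cell sample, while the non-β-cell groups overlapped. The age difference in β-cells was -1.80 on the log2 scale (SE 0.20, adjusted p = 7.36e-05 by limma-voom), a 3.47-fold decrease, against 0.18 (SE 0.21, adjusted p = 0.646) in non-β-cells. These changes differed from each other by -1.97 (SE 0.29, adjusted p = 0.00173).

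Sst ran the other way, with a higher mean at 8 weeks in both fractions. It measured 339, 367 and 776 CPM in 4-week and 763, 806 and 850 CPM in 8-week β-cells. In non-β-cells it measured 4467, 4517 and 6876 CPM at 4 weeks and 7587, 10552 and 10871 CPM at 8 weeks. The β-cell groups overlapped through replicate 3 of the 4-week β-cells alone, and the non-β-cell groups did not overlap. Sst rose in non-β-cells by 0.88 (SE 0.28, adjusted p = 0.0466) on the log2 scale. That call sat near the threshold and was lost in 9 of the 12 fits that left out a sample, with an adjusted p of up to 0.163 and a change of at least 0.75. In β-cells the difference was 0.81 (SE 0.27, adjusted p = 0.0512), which missed the threshold, and without replicate 3 of the 4-week β-cells it was 1.19 (adjusted p = 0.000887). Over 23 alternative fits this β-cell difference lay between 0.57 and 1.19, with an adjusted p of up to 0.203. The changes in the 2 fractions differed by -0.07 (95% interval -0.91 to 0.76, adjusted p = 0.950).

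Ppy, like Gcg, fell with age in the β-cell fraction. It was 147, 168 and 367 CPM in 4-week and 69.3, 63.3 and 58.1 CPM in 8-week β-cells, with no overlap. In non-β-cells it was 5595, 5554 and 6944 CPM at 4 weeks and 4018, 5389 and 5070 CPM at 8 weeks, again with no overlap, in a comparison in which 16.4% of all tested genes were called. Ppy fell by 1.72 on the log2 scale with age in β-cells (SE 0.27, adjusted p = 0.000831), and its difference of -0.32 in non-β-cells did not pass (SE 0.27, adjusted p = 0.489). The test between these changes missed the threshold, at -1.39 (SE 0.38, adjusted p = 0.0537). Of 22 alternative fits 9 put it past the threshold, and without replicate 3 of the 4-week β-cells it was -0.99 (adjusted p = 0.00840).

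Pyy, the neighbour of Ppy on chromosome 11, showed no age difference that passed the test in either fraction. It measured 101, 119 and 214 CPM in 4-week and 138, 126 and 136 CPM in 8-week β-cells, so that the 8-week values lay inside the 4-week range. In non-β-cells it measured 2285, 2343 and 2946 CPM at 4 weeks and 2748, 3910 and 3905 CPM at 8 weeks, with overlap. The age differences were -0.04 in β-cells (95% interval -0.53 to 0.46, adjusted p = 0.933), within which a decrease or increase of that size remains possible, and 0.47 in non-β-cells (SE 0.23, adjusted p = 0.209). The non-β-cell difference passed in 3 alternatives. It was 0.67 with sample quality weights (adjusted p = 0.00124), 0.59 without both 4-week samples numbered 3 (adjusted p = 0.00490) and 0.47 without replicate 3 of the 4-week β-cells (adjusted p = 0.0292).

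Ghrl was near the limit of detection. Its estimated counts were 1, 134 and 1 in 4-week β-cells, 0 in all 3 of the 8-week β-cells, 9, 0 and 20 in 4-week non-β-cells and 73, 0 and 0 in 8-week non-β-cells. These counts reached 5.31 CPM in replicate 2 of the 4-week β-cells and 3.16 CPM in replicate 1 of the 8-week non-β-cells, the 2 samples above 1 CPM. A count of 0 allowed a level of up to 0.111 to 0.218 CPM, which is 3 counts in each library and covers counting error only. Replicate 2 of the 4-week β-cells carried nearly all Ghrl counts of that fraction. In non-β-cells the counts came from replicates 1 and 3 at 4 weeks and replicate 1 at 8 weeks. No difference in Ghrl level between fractions or ages was tested. Mboat4, the acyltransferase that activates ghrelin, was below 1 CPM in all 12 samples, and the other ε-cell marker examined, Asgr1, did not pass the filter.

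**Figure D1:**
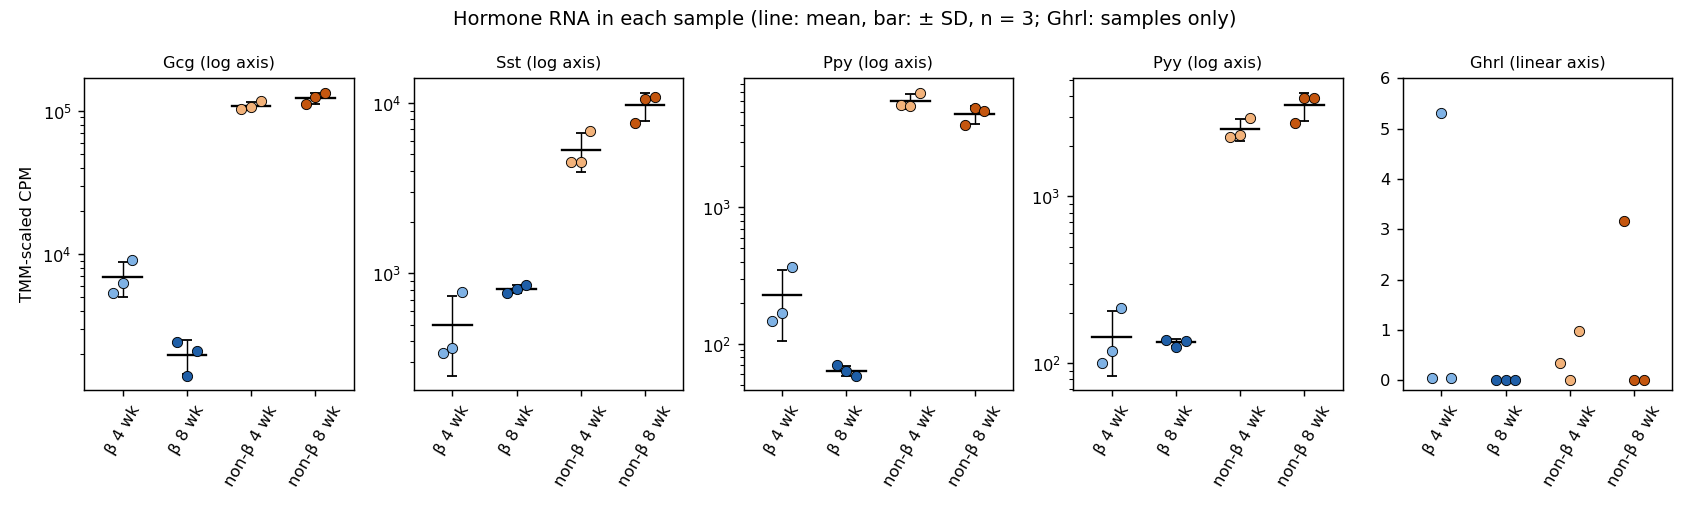
TMM-scaled CPM of the 5 hormone genes in each of the 12 samples, on log axes for Gcg, Sst, Ppy and Pyy with the mean and SD of 3 replicates, and on a linear axis for Ghrl with the samples alone. Gcg and Ppy lie lower in 8-week than in 4-week β-cells, Sst and Pyy do not, and Ghrl is above 1 CPM in 2 samples.

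All 4 tested hormones were lower in the β-cell fraction at both ages, where 23.7% of all 15598 genes tested were lower at 4 weeks and 25.6% at 8 weeks, of 48.5% and 49.2% called in either direction. At 4 weeks the differences on the log2 scale were -4.01 for Gcg (SE 0.21, adjusted p = 1.15e-08), -3.50 for Sst (SE 0.27, adjusted p = 4.07e-07), -4.85 for Ppy (SE 0.27, adjusted p = 1.84e-08) and -4.20 for Pyy (SE 0.23, adjusted p = 1.84e-08). At 8 weeks they were -5.98 for Gcg (adjusted p = 3.39e-10), -3.57 for Sst (adjusted p = 3.22e-07), -6.24 for Ppy (adjusted p = 1.75e-09) and -4.71 for Pyy (adjusted p = 5.07e-09). Gcg thus went from 16.1-fold to 63.2-fold lower in β-cells, while Sst stood at 11.3-fold and 11.9-fold lower. For the age comparisons, 17.9% of tested genes were called in β-cells (8.59% higher, 9.35% lower) and 16.4% in the non-β-cell samples. Between the fractions 5.13% were called for a difference in age change, 3.33% with the lower value in β-cells. Against these shares, 2 of the 4 tested hormones were called in β-cells, both lower, 1 in the other fraction and 1 between the fractions. The comparisons at each age and those between ages share samples, so they are not independent of each other.

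The level in each β-cell sample was also expressed as a percentage of the mean non-β-cell level at the same age. For Gcg it was 6.36% ± 1.75 (SD, n = 3) at 4 weeks and 1.62% ± 0.428 at 8 weeks. For Ppy it was 3.77% ± 2.02 and 1.32% ± 0.116. For Pyy it was 5.72% ± 2.40 and 3.79% ± 0.188, and for Sst 9.35% ± 4.63 and 8.34% ± 0.450. At 4 weeks the ranges of the hormones overlapped except those of Ppy (2.43% to 6.09%) and Sst (6.42% to 14.7%), and this overlap came from replicate 3 alone. In replicates 1 and 2 the hormones did not overlap, at 6.42% and 6.94% for Sst, 4.98% and 5.78% for Gcg, 3.99% and 4.71% for Pyy and 2.43% and 2.79% for Ppy. Without replicate 3 of the 4-week β-cells the 4-week means were 6.68% for Sst, 5.38% for Gcg, 4.35% for Pyy and 2.61% for Ppy. The non-β-cell mean in these values kept its own replicate 3, which was the highest of its group for each hormone. Percentages without both samples are not given. At 8 weeks they fell into an order with no overlap between Sst (7.89% to 8.79%), Pyy (3.58% to 3.92%) and the other 2, among which Gcg (1.15% to 1.99%) and Ppy (1.20% to 1.44%) overlapped. For all tested genes with a mean over 1 CPM in non-β-cells, the median percentage was 98.5% at 4 weeks and 98.6% at 8 weeks, and 3.83% and 6.36% of those genes were under 10%.

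**Figure D2:**
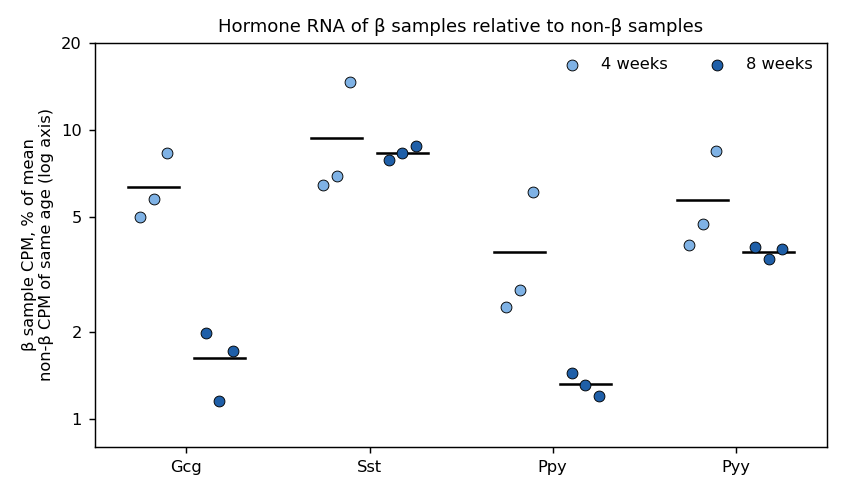
Level of Gcg, Sst, Ppy and Pyy in each β-cell sample as a percentage of the mean non-β-cell level at the same age, on a log axis, with the mean of 3 samples as a line. At 8 weeks Gcg and Ppy lie between 1.15% and 1.99%, Pyy between 3.58% and 3.92% and Sst between 7.89% and 8.79%.

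In bulk samples, fewer cells of a type and less RNA per cell cannot be told apart, and neither can RNA carried over from other cells and RNA made by β-cells. The other genes known from α-, δ- and PP cells are therefore given beside the hormones. Of 7 α-cell markers other than Gcg, all 7 were lower in β-cells at both ages, with a median of 7.11% of the non-β-cell level at 4 weeks and 4.37% at 8 weeks. The transcription factor Irx1 went from 4.28% to 1.57%, Pou3f4, another α-cell factor, from 7.11% to 1.49%, and Ttr (transthyretin) from 9.36% to 4.54%. Slc7a2, an amino acid transporter, stood at 35.0% and 42.2%. Of 5 δ-cell markers other than Sst, the factor Hhex stood at 7.72% and 5.54% and Rbp4 at 7.93% and 5.95%. Ghsr, the ghrelin receptor, stood at 5.21% and 5.51%, and Sstr3 was higher in β-cells, at 204% and 219%. The median of these δ-cell markers was 7.83% at 4 weeks and 5.54% at 8 weeks. Lepr entered it only at 8 weeks, because its 4-week mean in the other fraction was under 1 CPM. For PP cells, Etv1 stood at 4.20% and 3.78% and Meis2 at 46.0% and 65.1%.

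With age, 6 of these 7 α-cell markers fell in β-cells and none rose, with a median log2 difference of -0.92 against 0.02 over all tested genes. Lower calls made up 9.35% of all tested genes there. The count was also 6 without both 4-week samples numbered 3, and it was 4 without replicate 1 or 2 of the 4-week β-cells, any 1 of the 8-week β-cell samples or replicate 3 of the 8-week non-β-cells. Irx1 fell by 2.18 (adjusted p = 0.00295), Pou3f4 by 2.28 (adjusted p = 0.0393) and Ttr by 1.25 (adjusted p = 0.000975). Pou3f4 was 1.24 to 2.10 CPM in 4-week and 0.120 to 0.833 CPM in 8-week β-cells, so that its values rest on few counts. In non-β-cells 2 of these 7 markers fell, Irx1 by 0.73 and Irx2 by 0.45, where 4.8% of all genes were called lower. Of the 5 δ-cell markers other than Sst, Rbp4 fell in β-cells by 0.72 (adjusted p = 0.0476) and the other 4 were not called. Hhex gave -0.40 (adjusted p = 0.475), and the call of Rbp4 was lost without both 4-week samples numbered 3. In non-β-cells the 1 called δ-cell marker was Lepr, which reached 1.80 CPM at most. Of the PP cell markers tested beside Ppy and Pyy, Meis2 rose by 0.55 (adjusted p = 0.00708) and Etv1 gave -0.61 (adjusted p = 0.119). Between the fractions, limma-voom called 0 of these 7 α-cell markers for a difference in age change, with 4 at an unadjusted p under 0.05, while edgeR called 2 and DESeq2 3, all lower in β-cells. Irx1 was at -1.45 (adjusted p = 0.0746) and Pou3f4 at -2.57 (adjusted p = 0.0577) by limma-voom.

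**Figure D3:**
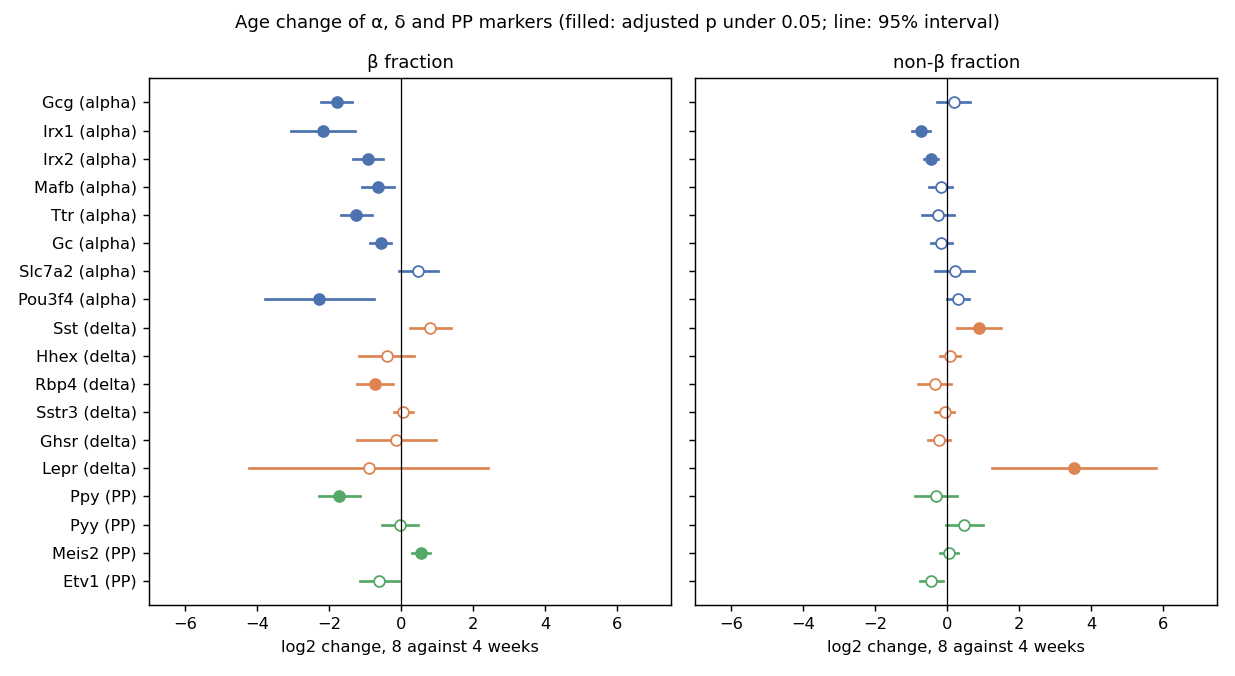
Log2 difference between 8 and 4 weeks for Gcg, Sst, Ppy, Pyy and the markers of α-, δ- and PP cells in the β-cell fraction (left) and the non-β-cell fraction (right), with 95% intervals and filled points for an adjusted p under 0.05. In β-cells Gcg and 6 of 7 other α-cell markers lie under 0 with filled points, while Sst is at 0.81 and Pyy at -0.04.

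The make-up of the hormone RNA was compared on a length-adjusted scale, the count per kilobase of annotated exon scaled to the same sum in every sample. On this scale Gcg made up 73.6% to 77.1% of the summed level of the 5 genes in 4-week and 72.6% to 76.4% in 8-week non-β-cells. The order in non-β-cells at 8 weeks was Gcg, Sst, Ppy and Pyy, whereas at 4 weeks Ppy came before Sst. In 4-week β-cells Gcg made up 73.8% to 80.2%, and 2 of these 3 samples lay above every non-β-cell sample. In 8-week β-cells its share was 39.6% to 53.6% and that of Sst 34.7% to 46.8%, and these 2 ranges overlapped. How close these 2 shares lay depended on the length used. With all exons the 8-week β-cell means on this scale were 3554 for Gcg and 2976 for Sst. With the longest transcript they were 3842 and 2343. Pyy held 3.51% to 4.13% of the sum in 4-week and 7.18% to 8.35% in 8-week β-cells. The 5 genes together took 0.616% to 1.01% of all counts in 4-week β-cells, 0.236% to 0.342% in 8-week β-cells, and 11.7% to 14.5% in non-β-cells.

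**Figure D4:**
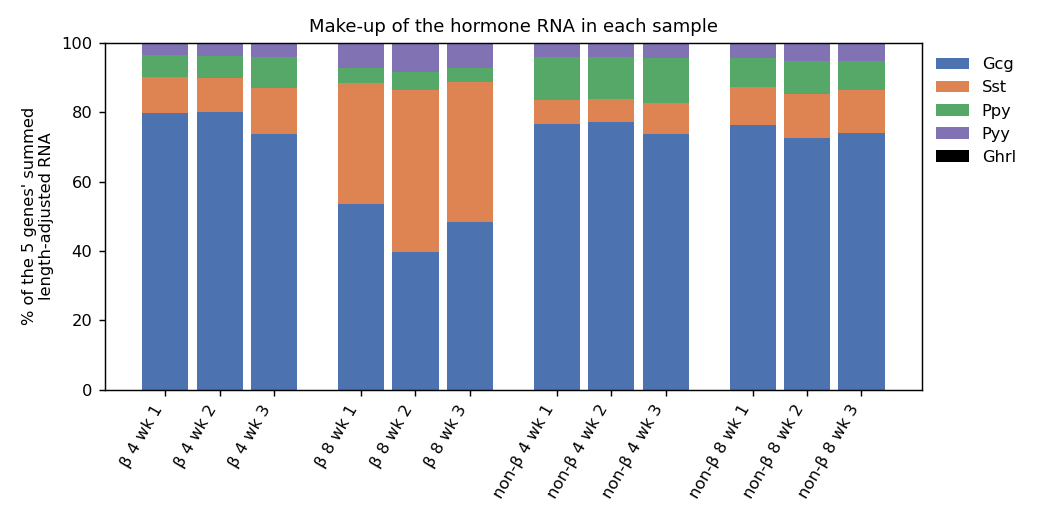
Share of each hormone in the summed length-adjusted RNA of the 5 genes in each of the 12 samples. Gcg holds 72.6% to 80.2% in all samples but the 8-week β-cells, where it holds 39.6% to 53.6% and Sst 34.7% to 46.8%. The length is that of all annotated exons, and with the longest transcript the 8-week β-cell means of Gcg and Sst lie further apart.

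The ratio of each hormone to Gcg within a sample does not depend on the scaling between libraries, and it was tested by exact two-sided permutation of samples within the other factor, with 8 ratio tests adjusted together. With all annotated exons as the length, Sst was 14.3% ± 3.05 (SD, n = 3) of Gcg per length in 4-week and 88.8% ± 27.2 in 8-week β-cells. In non-β-cells Sst was 10.0% ± 1.89 and 16.2% ± 1.78. Its ratio to Gcg was higher at 8 than at 4 weeks by a mean of 1.66 on the log2 scale over both fractions (exact p = 0.005, the smallest that 400 arrangements can give, adjusted p = 0.02). Within β-cells the difference was 2.61 and within non-β-cells 0.71, and whether these differ was not tested. Between fractions, the ratio was higher in β-cells by 1.46 averaged over the ages (exact p = 0.01, adjusted p = 0.02), made up of 0.51 at 4 weeks and 2.41 at 8 weeks.

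Pyy was 4.83% of Gcg per length in 4-week and 16.6% in 8-week β-cells, against 5.49% and 6.74% in non-β-cells. Its ratio to Gcg was higher at 8 weeks by a mean of 1.03 on the log2 scale (exact p = 0.01, adjusted p = 0.02), with 1.76 in the β-cell fraction and 0.29 in the other. Between fractions the mean difference of 0.55 did not pass (exact p = 0.09, adjusted p = 0.12), with parts of opposite sign, -0.19 at 4 weeks and 1.28 at 8 weeks. The ratio of Ppy to Gcg was different between fractions by -0.55, lower in β-cells (exact p = 0.02, adjusted p = 0.032). This was made up of -0.84 at 4 weeks and -0.25 at 8 weeks, where the samples of the fractions overlapped. Between ages the Ppy ratio did not pass, at -0.21 (exact p = 0.265, adjusted p = 0.303), a mean of 0.08 in β-cells and -0.50 in the other fraction. With samples paired by replicate number, the Ppy difference between fractions had an exact p of 0.0625. The ratio of Ghrl to Gcg rests on counts of 0 in 6 of 12 samples, so its value of 4.14 between fractions (exact p = 0.005, adjusted p = 0.02) is set by the prior count of 2 and is not read as a difference.

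The level of Pyy relative to Ppy, chosen for description after the values were seen and not tested, was 0.461 to 0.561 per length in 4-week and 1.58 to 1.86 in 8-week β-cells. In non-β-cells it was 0.324 to 0.336 at 4 weeks and 0.542 to 0.610 at 8 weeks. No ranges overlapped except between 4-week β-cells and 8-week non-β-cells. Relative to the summed insulin RNA of the same sample, which rose with age, Gcg in β-cells was 12.6% to 16.8% at 4 weeks and 1.28% to 2.33% at 8 weeks per length. On the same measure Sst was 1.65% to 2.33% and 1.51% to 1.65%, and these ranges overlapped.

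The genes whose pattern over the 12 samples was most like each hormone were taken as those with the smallest root mean square difference between centred log2 CPM profiles, among 10174 genes with a mean log2 CPM of at least 3. For Gcg these were Vwde (0.22), Egr2 (0.34) and Avpr1b (0.35), a vasopressin receptor, and Ppy ranked 6, Pyy 26 and Sst 101. For Sst they were Arg1 (0.26), Higd1a (0.32) and Txnip (0.35), with Pyy at rank 29 and Gcg at rank 482. Ppy was nearest to Avpr1b (0.39), Gcg (0.40) and Vwde (0.42), and Pyy to Gpx3 (0.27), Basp1 (0.29) and Npas4 (0.32). Vwde averaged 5.28 CPM in 4-week and 1.28 CPM in 8-week β-cells, against 83.0 CPM and 110 CPM in the other fraction. All profiles share the 12 libraries and the large difference between the fractions, so these ranks are descriptions.

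The convertases that cut the prohormones stood on opposite sides of the comparison between the fractions. Of 12 processing genes 11 were tested, and at 4 weeks 3 were higher and 5 lower in β-cells, at 8 weeks 4 higher and 5 lower, with medians of 0.02 and 0.16. Higher calls made up 24.9% of tested genes at 4 weeks and 23.6% at 8 weeks. Pcsk1, the convertase that also yields glucagon-like peptide from proglucagon, was higher in β-cells 15.3-fold at 4 weeks (adjusted p = 2.43e-10) and 14.9-fold at 8 weeks (adjusted p = 6.23e-11). Pcsk2, the convertase that yields glucagon, was lower there, with log2 differences of -1.52 (adjusted p = 9.71e-07) and -1.20 (adjusted p = 6.96e-06). In non-β-cells Pcsk1 was 10.2 to 24.3 CPM and Pcsk2 5467 to 7714 CPM. Pcsk1 rose with age in both fractions, by 0.94 (adjusted p = 2.15e-05) in β-cells and by 0.98 (adjusted p = 0.000251) in the other fraction. Pam, which amidates peptides including peptide YY and pancreatic polypeptide, rose in β-cells by 0.91 (adjusted p = 3.65e-05) and gave -0.09 in non-β-cells (adjusted p = 0.586), a difference of 1.00 (adjusted p = 0.000799). Chgb and Scg3, granule proteins, were the other 2 of the 4 processing genes that rose with age in β-cells, by 0.50 and 0.43, and none fell, where 8.59% of all tested genes were called higher and 9.35% lower.

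Receptors for the hormones were divided between the fractions, with Gcgr and Glp1r higher in β-cells. Of 14 receptor genes 8 passed the filter, and 3 of these were higher and 4 lower in β-cells at 4 weeks, and 4 higher and 4 lower at 8 weeks. Over all tested genes 24.9% were higher and 23.7% lower at 4 weeks, and 23.6% and 25.6% at 8 weeks. Gcgr, the glucagon receptor, was 35.4 to 42.0 CPM in β-cells but 2.74 to 5.45 CPM in the other fraction, a log2 difference of 3.68 at 4 weeks (adjusted p = 2.28e-08) and 3.16 at 8 weeks (adjusted p = 3.33e-08). Glp1r, the receptor of glucagon-like peptide, was 406 to 661 CPM in β-cells but 30.5 to 43.5 CPM in the other fraction, with differences of 3.87 and 4.03. Glp2r, the receptor of a further product of the Gcg gene, failed the filter, at 0 in all 8-week β-cells and 0.617 to 1.42 CPM in the 8-week samples of the other fraction. Glp1r rose with age in β-cells by 0.42 (adjusted p = 0.0381), and Gcgr did not pass at -0.03 (95% interval -0.25 to 0.20, adjusted p = 0.895).

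Among the somatostatin receptors, Sstr3 was 190 to 216 CPM in β-cells but 72.3 to 106 CPM in the other fraction, higher by 1.03 at 4 weeks (adjusted p = 2.30e-05) and 1.16 at 8 weeks (adjusted p = 7.38e-06). Sstr2, known as the main receptor of α-cells, was 28.6 to 44.8 CPM in non-β-cells and 0.528 to 2.89 CPM in β-cells, with log2 differences of -4.13 (adjusted p = 3.29e-07) and -5.40 (adjusted p = 1.50e-06). Sstr1 was at most 0.522 CPM in β-cells but 1.28 to 5.50 CPM in the other fraction, and was called lower at both ages. Ghsr, the ghrelin receptor, which islets carry on δ-cells, was 22.4 to 25.3 CPM in 4-week and 17.9 to 23.2 CPM in 8-week non-β-cells and 0.740 to 1.70 CPM in β-cells. Its differences were -4.29 (adjusted p = 1.09e-06) and -4.20 (adjusted p = 1.28e-06), and Ghrl itself was between 0 and 3.16 CPM in the same non-β-cell samples.

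For peptide YY and pancreatic polypeptide, Npy1r was called lower in β-cells at both ages, being 0.649 to 2.45 CPM in non-β-cells and 0 in all 8-week β-cell samples. Npy4r, the receptor of pancreatic polypeptide, was at most 0.344 CPM in any sample, and Npy2r, Npy5r, Sstr4 and Sstr5 also failed the filter. Gipr, the receptor of the gut hormone GIP, rose with age by 1.00 in β-cells (adjusted p = 4.15e-05) and by 0.39 in the other fraction (adjusted p = 0.0256), a difference of 0.60 (adjusted p = 0.0376). No other receptor gene was called between ages in either fraction.

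**Figure D5:**
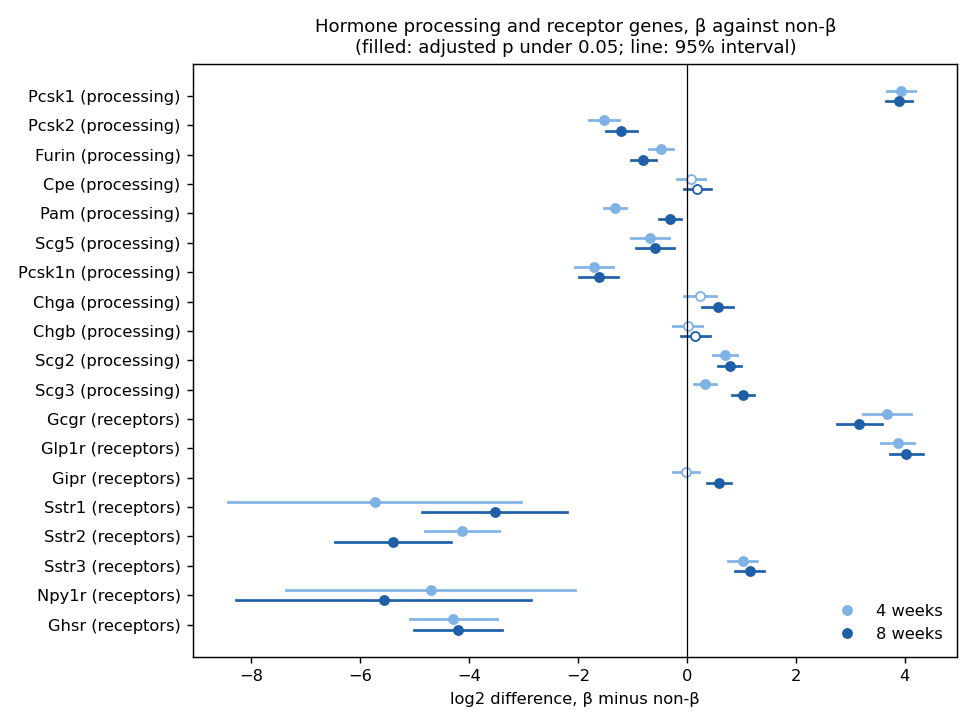
Log2 difference between β-cells and non-β-cells for 11 hormone processing and 8 hormone receptor genes at 4 weeks (light) and 8 weeks (dark), with 95% intervals and filled points for an adjusted p under 0.05. Pcsk1, Gcgr and Glp1r lie to the right between 3.16 and 4.03, and Sstr1, Sstr2, Npy1r and Ghsr lie to the left.

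RNA of other cell types moved with age and fraction beside the hormones. In non-β-cells, all 5 endothelial and all 6 mesenchymal markers rose, their summed levels going from 28.7 to 60.5 CPM at 4 weeks to 236 to 677 CPM at 8 weeks and from 102 to 290 CPM to 648 to 1001 CPM. Higher calls made up 11.6% of all tested genes there. In β-cells none of the 5 endothelial markers was called, and their sums were 1.98 to 9.08 CPM at 4 weeks and 5.97 to 7.05 CPM at 8 weeks. Of the 6 mesenchymal markers 1 rose in β-cells, while their summed level went from a median of 8.75 CPM at 4 weeks to 28.1 CPM at 8 weeks with no overlap, and their median log2 difference was 1.99 against 2.20 in the other fraction. The endothelial markers in β-cells stood at a median of 4.20% of the non-β-cell level at 4 weeks and 0.644% at 8 weeks, and the mesenchymal markers at 5.84% and 4.17%. Of 10 leukocyte markers 2 were tested, and the summed level was 51.0 to 77.4 CPM in β-cells but 7.78 to 19.9 CPM in the other fraction, nearly all of it Cd68. Ptprc, which encodes CD45, was at 0 in all 8-week β-cell samples. Acinar markers summed to 79.4 to 158 CPM in 4-week and 361 to 774 CPM in 8-week β-cells, and to 34.2 to 79.4 and 174 to 640 CPM in non-β-cells. Duct markers summed to 830 to 1161 CPM in 4-week and 1648 to 1769 CPM in 8-week β-cells, and to 564 to 756 and 1864 to 2096 CPM in non-β-cells. Of the 4 duct markers 1, Spp1, was called higher with age in β-cells and 3 in the other fraction. The β-cell sum was nearly all Krt7 and Spp1. There Krt7 averaged 857 CPM at 4 weeks and 740 CPM at 8 weeks, and Spp1 99.2 and 943 CPM, so the rise of the sum was that of Spp1. The part of these cells in the hormone differences was not tested.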

How the data were processed

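A strand-specific kit for small amounts of total RNA was used for all 12 samples. Per the study's methods, reads were filtered with fastp, assigned to the Ensembl mouse transcriptome (GRCm38) with kallisto and summed to genes with tximport, with tool versions not given in the sources used here. The table deposited by the authors holds these estimated counts without scaling or filtering. In each sample 14.0% to 19.3% of values were not whole, and all were rounded.

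Genes above 1 CPM in at least 3 samples were kept (15598 of 52962), scaled with TMM (trimmed mean of M-values) factors of 0.954 to 1.05 from edgeR 4.0.16, and fitted with limma-voom (limma 3.58.1, R 4.3.3) as 1 mean per group over all 12 samples, after the study's methods. Two-sided p-values over the whole set of 15598 genes were given a Benjamini-Hochberg adjustment, and 0.05 was the threshold. The edgeR quasi-likelihood and DESeq2 (1.42.0) tests were alternatives. Ratios of hormones to Gcg used counts plus 2 and exact permutation over samples. The limma-voom p-values rest on the spread between samples of the same group, estimated for each gene from all 4 groups together. A sample left out of 1 group can therefore change a call in another. The labels do not give how the 3 samples of a group were separated by mouse. Coordinates and exon lengths came from GENCODE M21, an annotation of the same build but not the release used for counting.

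The 5 genes and all gene lists were chosen with earlier results of these data known. The text names the 5 hormones, up to 4 examples per list by size among called genes or by role, and the 3 genes most like each tested hormone. Markers named in counts alone are not described, and 1 α-cell marker is not reported here.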

Additional observations from a re-analysis of the deposited data

Results flagged for a closer look

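The age change of Gcg differed between the fractions: subtracting the log2 change of the non-β-cell fraction from that of the β-cell fraction gave -1.97 (SE 0.29, adjusted p = 0.00173 by limma-voom). All 3 of the 8-week β-cell samples (1413 to 2443 CPM) lay under all 3 of the 4-week β-cell samples (5402 to 9039 CPM), while non-β-cells held 102911 to 132644 CPM. Over 22 alternative fits it lay between -2.15 and -1.75. The markers of other cell types that moved with age in the same samples are given with the report, and their part in this difference was not tested.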

How the results depend on the processing

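All 4 tested hormones were lower in β-cells at both ages in every alternative fit, and Gcg and Ppy fell with age in β-cells in all 23. The number of hormones called with age in non-β-cells, 1 in the report, was 0 with the edgeR quasi-likelihood test, 2 with sample quality weights, 2 without both 4-week samples numbered 3, and 0 to 2 when samples were left out in turn. The number called between fractions for their age change, 1 in the report, was 2 with the edgeR test, DESeq2, total counts only, sample quality weights, the replicate block and without both samples numbered 3, and 1 to 2 over single samples left out. In each case of 2 the added hormone was Ppy, with adjusted p between 0.000813 and 0.0477. Sst with age in β-cells passed in 7 of the 23 alternatives, and its adjusted p reached 0.203 among the others. One that passed was the replicate block (0.81, adjusted p = 0.0172), which between ages matched samples by number alone. The cause of these moves was not tested.

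Small differences turned direction and did not pass in any such case. Pyy with age in β-cells was 0.27 with quality weights, 0.28 without both samples numbered 3 and -0.28 to 0.28 over single samples left out. The Sst difference between fractions in age change was 0.0259, 0.0943 and -0.30 to 0.31 in the same order. The age difference of the Ghrl to Gcg ratio was 0.0231 with a prior count of 5 and -1.26 to 0.455 over samples left out. The Ppy to Gcg ratio between fractions with the replicate block was -0.546 (exact p = 0.0625). As a share of the non-β-cell level, leaving out single samples gave at 4 weeks 6.68% to 11.0% for Sst, 2.61% to 4.44% for Ppy, 4.35% to 6.59% for Pyy and 5.38% to 7.05% for Gcg, and at 8 weeks 7.53% to 8.89% for Sst and 3.42% to 4.01% for Pyy. Dividing by the longest transcript in place of all exons moved 10 of 16 group means per length by more than their SD. The shares of the hormones and their percentages of Gcg per length therefore depend on this choice, among them those of Gcg and Sst in 8-week β-cells.

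The correlation of deviations of same-numbered samples was 0.080 to 0.306 between fractions at 4 weeks, 0.008 to 0.049 at 8 weeks and -0.006 to 0.124 between ages. Differently numbered samples were not compared, so these values cannot decide whether equal numbers mark fractions of the same pool. Samples of different ages came from different mice, so an equal number does not make them a pair. The main fit took no pairs. With the replicate block more genes were called between fractions, 9005 against 7570 at 4 weeks and 8945 against 7679 at 8 weeks. For the difference in age change 1879 were called against 800. Fewer were called between ages, 2593 against 2799 in β-cells and 2341 against 2561 in non-β-cells. With the replicate block, which matched samples of different ages by number alone, 4 of the 7 α-cell markers were called lower with age in β-cells, against 6 in the report. An interaction could not be fitted from 2 groups alone.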
